A study of Mus musculus with 12 samples.

Results

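Gm-numbered genes are mouse gene models that carry a placeholder symbol, the letters Gm and a number, because they have no assigned name. The expression table held 48034 genes, of which 20190 had such a symbol, and 9395 of these were listed at 0 in all 12 libraries. The 1491 with a mean of at least 2 FPKM (fragments per kilobase of exon and sequencing depth, a level per length) over the 12 libraries are described here. They were chosen by their measured level, so their levels are a description and are not tested. For 61 of the 1491 the mean over the 3 lower groups was under 2 FPKM. These entered through 1 high group, which was mifepristone plus NaCl for 24, vehicle for 15, vehicle plus NaCl for 13 and mifepristone for 9, and therefore had to differ between groups. Of the members described below, Gm13594, Gm15753, Gm16793, Gm19569, Gm26595, Gm42586 and Gm7160 entered through mifepristone plus NaCl, Gm11682, Gm12868 and Gm43965 through vehicle plus NaCl and Gm26854 through mifepristone, so their rises into that group are a description. Gm5424 entered through the mifepristone groups with and without NaCl, so its rise with mifepristone is likewise a description. The genes just inside the limit were Gm7099, Gm12804 and Gm16305 with means of 2.003, 2.007 and 2.009 FPKM, and those just outside were Gm10653 at 1.997 FPKM and Gm6197 and Gm24500 at 1.985 FPKM.

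The cells were IMCD3, a mouse kidney line of inner medullary collecting duct origin, the last tubule segment to adjust the salt and water content of urine. All 12 libraries came from its subclone 53a, which as known of the study carries a dominant-negative version of a kidney tubule transcription factor under mifepristone control. There were 4 groups of 3 libraries, named A, B and C: vehicle, vehicle plus 100 mM NaCl, mifepristone, and mifepristone plus 100 mM NaCl. The treatment times are not given in the labels. Both arms carry the construct, cells without it were not analysed here, and 53a is 1 subclone, so the drug and the mutant it induces cannot be told apart. Nothing in the labels says that the 3 libraries of a group are separate cultures, so the spread behind the p-values may be technical rather than between cultures.

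Most placeholder genes are pseudogenes or noncoding RNAs. A processed pseudogene is a copy of a spliced mRNA that was reverse transcribed and inserted elsewhere in the genome. It usually has no promoter of its own, and a sequencing read from the parent mRNA can match it equally well. Long noncoding RNAs often arise beside known genes, on the opposite strand or back to back from a shared promoter region. RNA made in the backward direction from such promoters is commonly degraded in the nucleus by the RNA exosome. Hyperosmotic salt is known to make RNA polymerase run past the ends of many genes, which gives readthrough RNA over whatever lies downstream on the same strand. In kidney medulla cells salt also switches on genes for osmolyte production and uptake, among them Akr1b3, the aldose reductase that makes sorbitol.

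The sequences below show why many of these genes could not be read as separate loci. The first pair is the first 120 bases of the Akr1b3 coding sequence and the matching stretch of Gm6736, a processed pseudogene on chromosome 12. The capital marks the only base of the 120 that differs, A99G, counted from 1 at the first base of the start codon.
Akr1b3: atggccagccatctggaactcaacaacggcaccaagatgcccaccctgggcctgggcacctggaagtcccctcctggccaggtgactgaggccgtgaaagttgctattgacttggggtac
Gm6736: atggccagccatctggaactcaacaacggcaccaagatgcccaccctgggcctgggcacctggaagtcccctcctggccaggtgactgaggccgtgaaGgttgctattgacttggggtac
Gm12138, a second Akr1b3 pseudogene, matched Gm6736 over this stretch with the same A99G (99.2% identity to Akr1b3). The unnamed transcript Gm38056 held the Akr1b3 letters without a difference on the opposite strand, at positions 907 to 1026 counted along its reverse complement.

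A long noncoding RNA with sequence of its own, Gm567, and a pair of back-to-back promoters are shown next. Gm567 had the largest fitted NaCl rise in vehicle cells among members with their own sequence. The promoters belong to results described further on. The windows run from 250 bases before to 50 bases after a start site and are RefSeq sequences on GRCm38.p6. For Gm567, chr3:137289367-137289666 on the plus strand, capitals mark TGGAAA, the core of the element bound by the osmotic stress factor Nfat5. It occurred at positions -112 and -84 from the start.
Gm567: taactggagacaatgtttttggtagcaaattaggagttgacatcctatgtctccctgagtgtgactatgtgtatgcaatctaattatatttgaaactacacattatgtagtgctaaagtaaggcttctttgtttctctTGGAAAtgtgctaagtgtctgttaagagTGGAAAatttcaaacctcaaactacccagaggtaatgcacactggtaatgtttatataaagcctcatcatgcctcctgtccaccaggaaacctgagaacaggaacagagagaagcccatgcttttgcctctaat
For the promoters, capitals mark the bases from the RefSeq start of the named gene back to the annotated GENCODE start of the Gm-numbered RNA on the other strand. The Rbm7 window is chr9:48495281-48495580 on the minus strand, with 113 bases between the starts of Rbm7 and Gm5617. The Zcchc2 window is chr1:105990156-105990455 on the plus strand, with 125 bases between the starts of Zcchc2 and Gm7160.
Rbm7 and Gm5617: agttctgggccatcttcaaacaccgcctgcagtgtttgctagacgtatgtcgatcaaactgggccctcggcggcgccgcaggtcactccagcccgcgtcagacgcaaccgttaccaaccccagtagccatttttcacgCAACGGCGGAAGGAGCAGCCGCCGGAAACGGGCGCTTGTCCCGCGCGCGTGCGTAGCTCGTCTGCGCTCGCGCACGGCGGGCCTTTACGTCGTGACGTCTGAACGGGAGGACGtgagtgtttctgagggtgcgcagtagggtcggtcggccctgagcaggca
Zcchc2 and Gm7160: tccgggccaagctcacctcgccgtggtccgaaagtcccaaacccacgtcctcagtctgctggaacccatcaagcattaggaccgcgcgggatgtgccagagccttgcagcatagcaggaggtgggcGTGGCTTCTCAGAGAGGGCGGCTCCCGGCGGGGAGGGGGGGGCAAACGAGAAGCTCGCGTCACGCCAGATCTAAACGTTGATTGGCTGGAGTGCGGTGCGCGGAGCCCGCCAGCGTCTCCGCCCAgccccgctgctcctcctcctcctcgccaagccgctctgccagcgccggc
These 2 windows were rich in G and C (64.0% and 67.7%), against 39.0% for Gm567. On either strand TGGAAA was present in 21.4% of 32851 promoter windows of this length in the RefSeq table and in 31 of the 109 windows that matched a member (28.4%, 96 genes). It was present in 6 of the 39 windows of members with sequence of their own (15.4%). At least 2 matches were present in 3.03% of all windows, in 5 of the 109 (4.59%) and in 4 of the 39 (10.3%). A match is a description of letters and not of binding.

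Between 41940955 and 49270776 reads per library were recovered from the deposited values, and the 1491 genes took 7.6% to 9.06% of them. Vehicle A and mifepristone C stood apart from their groups, with shorter transcripts higher (Spearman correlation of the deviation with exon length -0.44 and -0.51 across genes, against -0.29 to 0.46 in the other 10 libraries). The median deviation of the members was 0.065 and 0.094 on the log2 scale in these 2 libraries, and that of members with sequence of their own was -0.029 and -0.052. Epithelial markers were all tested and abundant (8 of 8, summed 653.9 to 1148 FPKM), whereas 2 of 10 principal cell markers of the collecting duct passed the filter and Aqp2, the water channel that defines them, was between 0 and 0.0589 FPKM in the group means. Of the proximal tubule list 2 of 5 genes were tested, and its summed level moved with the groups, mostly through the water channel gene Aqp1: 39.12 to 41.91 FPKM in vehicle, 429.6 to 443.5 with NaCl, 5.957 to 6.298 with mifepristone and 138.8 to 147.4 with both. The summed level of the principal cell list lay between 2.465 and 2.663 FPKM in vehicle and between 10.37 and 11.36 with mifepristone. That of the fibroblast list lay between 0.2579 and 0.3541 and between 5.646 and 6.334 FPKM. The fibroblast rise was that of Dcn alone, from 0.078 to 5.685 FPKM in the group means, and the 5 other genes of that list averaged under 1 FPKM. Of the epithelial markers 7 of 8 fell with NaCl in vehicle cells. The part of these in the results was not tested. Kif12, a kinesin gene used as a check of the labels, fell from 15.2 ± 0.17 FPKM in vehicle to 1.01 ± 0.0271 FPKM in mifepristone (SD, n = 3), and Akr1b3 rose from 25.6 ± 2.11 to 840 ± 39 FPKM with NaCl in vehicle cells.

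Pseudogene models made up 1116 of the 1491 genes (74.8%), long noncoding models 155 (10.4%), protein-coding models 112 (7.51%) and small RNA models 87 (5.84%), while 21 were not in the GENCODE M21 annotation. Each transcript was compared with all annotated transcripts. A near-identical copy at another locus, with at least 95% identity over at least 80% of the transcript, was found for 1126 genes. A further 177 shared a smaller part of their sequence with another expressed gene. The remaining 167 annotated genes had sequence of their own, 47 of them with exon bases that also belong to a gene at the same place. The near-identical group had the higher levels, with a median of 19.5 FPKM against 3.60 FPKM for genes with their own sequence, and took 7.31% to 8.78% of all reads against 0.0536% to 0.0751%. In all, 145 genes were under 200 bases long, and for those inside another transcript the reads of the 2 cannot be told apart.

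The test used log2(FPKM + 0.5), so fold changes of low genes are understated, and covered the 14044 genes with at least 1 FPKM in at least 3 libraries, which included all 1491. With NaCl in vehicle cells 235 of the 1491 genes rose (15.8%) and 555 fell (37.2%), by limma with Benjamini-Hochberg adjusted p under 0.05. Among all tested genes 25.2% rose and 31.5% fell. In mifepristone cells 228 rose (15.3%) and 497 fell (33.3%) with NaCl, against 24.5% and 34.2% of all tested genes. The median log2 fold change of the members was -0.12 in vehicle and -0.14 in mifepristone cells, against -0.02 and -0.06 over all tested genes. Near-identical copies and genes with their own sequence gave different counts, the first 148 higher and 474 lower (13.1% and 42.1%) and the second 49 higher and 28 lower (29.3% and 16.8%) in vehicle cells. In mifepristone cells these were 147 and 414 against 43 and 39. Changes of at least 2-fold were rises more often than falls, 32 against 7 in vehicle and 39 against 7 in mifepristone cells, as they were over all tested genes (384 against 180 and 468 against 257).

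**Figure D1:**
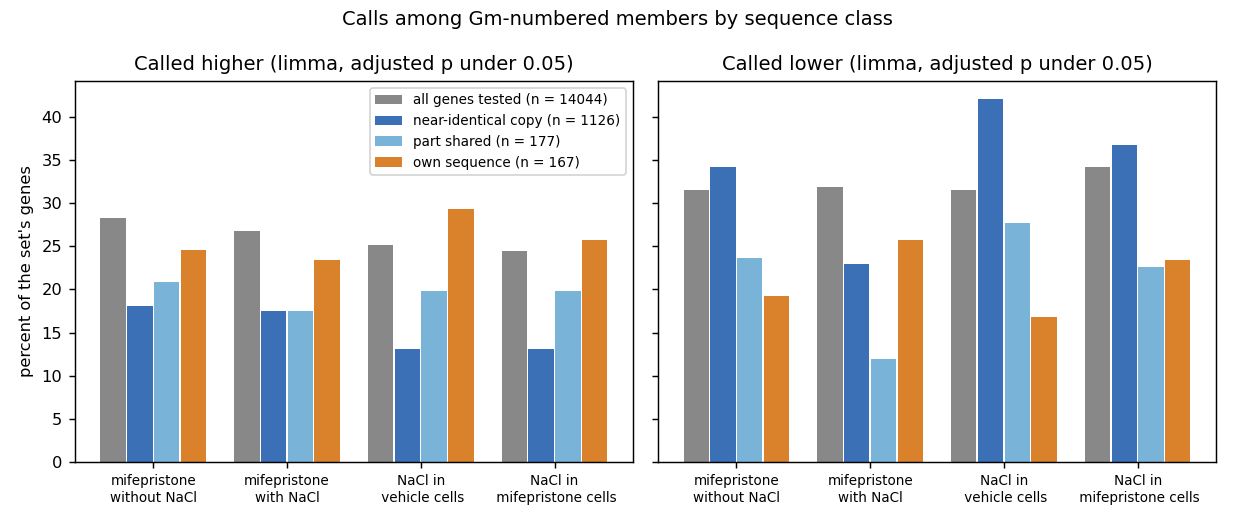
Percent of genes called higher (left) and lower (right) on the vertical axis, for both mifepristone and both NaCl comparisons (limma adjusted p under 0.05), for all tested genes, near-identical copies, genes sharing a part and genes with their own sequence. With NaCl in vehicle cells 42.1% of near-identical copies fell, against 16.8% of genes with their own sequence.

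Near-identical copies moved with the gene they match. For 1074 of the 1126 copies a matching gene outside the set was tested, taken as the one of highest level. Across these pairs the NaCl log2 fold changes of copy and matching gene in vehicle cells correlated with r = 0.968 (1074 pairs, which share their libraries and can share reads). The difference between copy and matching gene passed the test for 11 pairs in vehicle cells (1.02%), 8 with NaCl in mifepristone cells (0.745%) and 9 with mifepristone without NaCl (0.838%). With 0.1 in place of 0.5 added to FPKM these were 12, 8 and 4 pairs. Where both passed the test with NaCl in vehicle cells, 543 of 544 pairs had the same sign. The median absolute difference was 0.046 on the log2 scale, against a median of 0.119 for 2 standard errors. Of the 343 such copies that also had a tested neighbour in the genome, 164 (47.8%) differed from that neighbour with NaCl in vehicle cells, near the 49.9% of all 8981 genes with a neighbour. The authors' treatment of reads that match several places is not given in the sources used here. Of the 50-base words of these copies a median of 59.3% occurred in other tested genes, with all words shared for 131 copies and none for 18. How much of a copy's level and fold change comes from reads of the gene it matches therefore cannot be told.

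**Figure D2:**
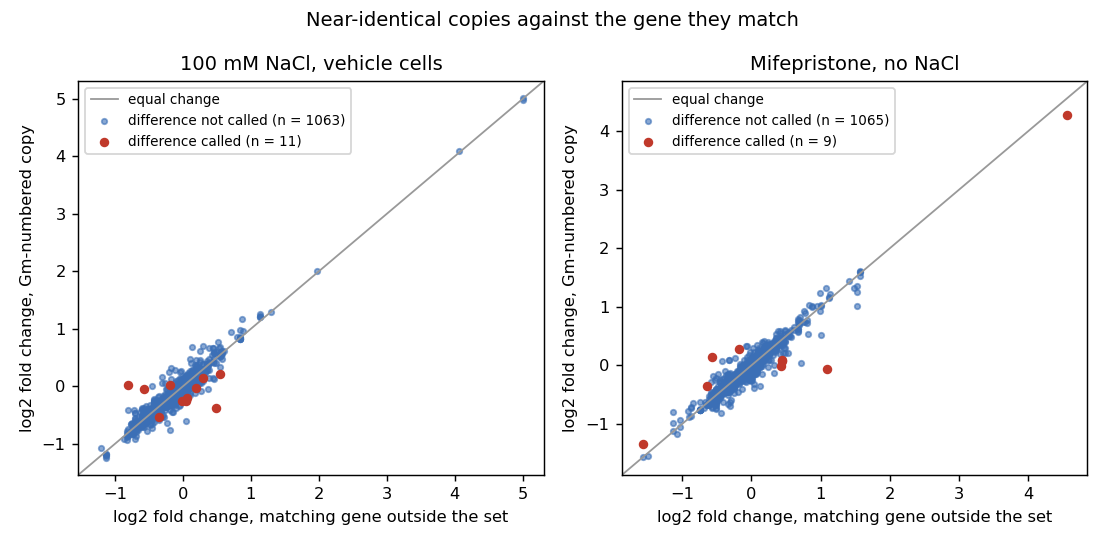
Log2 fold change of each near-identical copy (vertical axis) against that of its matching gene (horizontal axis), 1074 pairs, for NaCl in vehicle cells and for mifepristone without NaCl; the line marks equal change. The points lie along the line, and 11 and 9 pairs differed beyond the test's threshold.

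The Akr1b3 pseudogenes carried the largest fitted salt responses of the 1491 genes. Gm6736 (ENSMUSG00000071414) lies at chr12:13455023-13455970 on the minus strand, inside the body of Nbas, a membrane traffic gene on the other strand. It stood at 67.5, 57.8 and 62.0 FPKM in vehicle, 2123, 1895 and 2074 in vehicle plus NaCl, 91.3, 86.2 and 114 in mifepristone, and 2760, 2699 and 2618 in mifepristone plus NaCl. All 6 salt libraries lay far above all 6 without salt, with no overlap. The log2 fold change with NaCl was 5.01 ± 0.099 (SE) in vehicle and 4.79 ± 0.099 in mifepristone cells (adjusted p = 1.87e-11 and 2.26e-11, limma), and Akr1b3 itself rose by 5.01 and 4.77. Nbas, its host, had values of 0.09 and -0.07 (adjusted p = 0.437 and 0.521).

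Gm12138, at chr11:40672906-40673856 on the minus strand, sits 5458 bases past the end of Mat2b, a subunit of the enzyme that makes S-adenosylmethionine. It rose from 43.6 ± 5.12 to 1385 ± 77.6 FPKM in vehicle cells (SD, n = 3), a log2 fold change of 4.98, while Mat2b stood at 19.2 ± 1.41 and 19.4 ± 0.44 FPKM. The difference from Mat2b was 4.96 (adjusted p = 6.5e-11). Gm38056, at chr1:55440904-55445930 inside Plcl1, rose by 4.90 and 4.75 with NaCl in vehicle and mifepristone cells, while Plcl1 was between 0.386 and 0.527 FPKM in the group means and below the test's filter. Over the 12 libraries the log2 levels of Gm38056 and Gm6736 were most like those of Akr1b3 among all tested genes (Pearson r 0.9997 and 0.9999). These 2 and Gm12138 had the widest range of group means in the set.

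Copies of other salt-responsive genes followed the gene they match in the same way. Gm7329, a 210-base copy of Me1, the cytosolic malic enzyme, rose by 4.10 in vehicle and 4.75 in mifepristone cells, and Me1 by 4.06 and 4.83. The 5 copies of Hmgn2, a nucleosome-binding protein, all fell with NaCl in vehicle cells by 1.17 to 1.24 on the log2 scale, and Hmgn2 fell by 1.13. Gm10282, one of these, went from 143 ± 16.1 to 62.9 ± 3.21 FPKM. All 8 copies of Rbmy rose with NaCl, between 0.82 and 0.98 in vehicle cells against 0.84 for Rbmy.

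Copies of ribosomal protein genes formed the largest family. They numbered 264 and matched 66 genes. With NaCl in vehicle cells 248 of the 264 fell and 0 rose, with a median log2 fold change of -0.52, and 64 of the 66 matching genes fell, with a median of -0.54. In mifepristone cells 156 fell and 2 rose (median -0.29), and mifepristone without NaCl lowered 197 and raised 1 (median -0.37). The interaction, which is the NaCl log2 fold change in mifepristone cells minus that in vehicle cells, passed the test in 24 copies, all toward a weaker fall with NaCl in mifepristone cells, and in 4 of the 66 matching genes, while 13.6% of all tested genes had a call in that direction. Rpl21 had 19 copies with mean levels from 2.16 to 83.7 FPKM, and 18 of them fell with NaCl in vehicle cells, between -0.71 and -0.40, against -0.60 for Rpl21. Among the 799 copies of other nuclear genes 134 rose and 216 fell with NaCl in vehicle cells. Of the 510 genes they match 103 rose and 149 fell, and of all tested genes 25.2% rose and 31.5% fell.

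Copies of glycolytic and translation genes moved otherwise. The 14 Gapdh copies all fell with mifepristone, between -0.61 and -0.48 against -0.53 for Gapdh, and 12 of them rose with NaCl in mifepristone cells. Of 9 copies of Ppia, the cyclophilin A gene, all rose with NaCl in mifepristone cells, and of 6 Eef1a1 copies 6 did. Among all tested genes 24.5% rose in that comparison, and 31.5% fell with mifepristone without NaCl. Copies of the same gene can share its reads, so these counts are not of separate responses. The highest levels of the set belonged to copies of mitochondrial genes on chromosome 1. Gm29216 (a copy of mt-Co1) averaged 11160 ± 1240 FPKM in vehicle and Gm10925 (mt-Atp6) 10210 ± 1070. With NaCl in vehicle cells 0 of the 11 mitochondrial copies and 0 of their 9 matching genes passed the test, Gm29216 with a log2 fold change of -0.19 (adjusted p = 0.111, limma).

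A few near-identical copies departed from the gene they match, and they were singled out after their values were seen. Gm6548, a copy of the elongation factor gene Eef1a1 with 96.7% identity, had a NaCl log2 fold change of 0.43 in mifepristone cells against 1.03 for Eef1a1 (adjusted p of the difference 0.00103). Gm2830, a copy of Rps24 with 96.1% identity, stood at 0.38 against -0.34 there (adjusted p = 0.00108). In these copies 20% and 18.2% of 50-base words occurred elsewhere, against a median of 59.3% over all near-identical copies. Gm3650, which matches the initiation factor gene Eif3j1, was at -0.01 with mifepristone against 0.43 (adjusted p = 0.000735), though 92.8% of its words occurred elsewhere.

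Among members with sequence of their own the strongest salt response was that of Gm567, a long intergenic noncoding RNA at chr3:137289639-137300708 on the plus strand, whose promoter is printed above. It read 9.55, 8.53 and 9.29 FPKM in vehicle, 156, 152 and 158 in vehicle plus NaCl, 16.3, 16.1 and 15.4 in mifepristone, and 123, 123 and 119 in mifepristone plus NaCl. The 4 groups did not overlap, and both salt groups lay above both groups without salt. The rise was 16.2-fold in vehicle and 7.45-fold in mifepristone cells (log2 4.02 and 2.90, SE 0.043, adjusted p = 2.53e-13 and 1.98e-12). The interaction was -1.12 ± 0.061 (SE, adjusted p = 4.31e-07). No tested gene lay within 10 kb. In a comparison added after its values were seen, Alcam, a cell adhesion molecule, had the pattern most like it of all tested genes over 12 libraries (Pearson r 0.998), with rises of 1.5 and 0.99.

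Gm11682, a long intergenic noncoding RNA at chr11:110544507-110546399, was near 0 without salt, at 0.0447, 0.173 and 0.239 FPKM in vehicle and 0.341, 0.246 and 0.508 in mifepristone. With NaCl it stood at 6.94, 6.98 and 7.71 in vehicle and 4.40, 4.24 and 4.72 in mifepristone cells. The log2 fold changes of 3.57 and 2.53 (SE 0.124) rested on 11 and 27 reads in the groups without salt against 510 and 318 with it. Gm42586, at chr3:127861599-127865261, was at 0.0294, 0.0142 and 0.0524 FPKM in vehicle and 2.52, 2.48 and 2.64 with NaCl, and at 0.21, 0.175 and 0.283 in mifepristone and 7.45, 7.21 and 6.83 with NaCl. Its rises were 2.52 and 3.41 (SE 0.066). Their order rests on the 0.5 added to FPKM, since the ratio of the group means was 79.6 in vehicle and 32.2 in mifepristone cells. The interaction was 0.89 as fitted, 0.17 and not called with 0.1 added, and -1.14 with voom on the recovered reads. The nearest tested gene, 5730508B09Rik, lies 3797 bases away and rose by 1.45 and 2.03, which was less. The difference was 1.07 in vehicle cells (adjusted p = 1.31e-06, limma). In mifepristone cells it was 1.38, but a rise of Gm42586 there was required for it to be among the members.

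Other members with their own sequence rose less with NaCl. Gm27028, which contains the microRNA gene Mir30c-2, went from 6.40 ± 0.393 to 19.9 ± 2.26 FPKM in vehicle and from 4.88 ± 0.825 to 17.3 ± 0.957 in mifepristone cells (log2 1.56 and 1.73). Gm13594, antisense to Cobll1, rose from 0.489 ± 0.18 to 2.50 ± 0.113 FPKM and from 0.547 ± 0.101 to 4.86 ± 0.305 (log2 1.62 and 2.36), and Cobll1 rose by 2.60 and 2.49. Gm12868, antisense to the glucose transporter gene Slc2a1, rose by 1.39 and 0.82 with NaCl and fell by 1.22 with mifepristone, while Slc2a1 rose by 0.57 and 0.74 and fell by 1.43. Whether the counting used strand is not given in the sources used here, and reads of an antisense member and of the gene it overlaps cannot be told apart.

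Falls of 2-fold or more were fewer among members with their own sequence, 1 against 13 rises with NaCl in vehicle cells. Gm1673, a short protein-coding model at chr5:33983433-33985013, stood at 11.2, 10.8 and 10.4 FPKM in vehicle, 4.55, 4.92 and 4.87 with NaCl, 3.94, 4.08 and 5.82 with mifepristone and 3.42, 3.31 and 3.79 with both. The 3 vehicle libraries were above all others. It fell by 1.10 with NaCl and by 1.16 with mifepristone, and the further fall with NaCl in mifepristone cells was -0.33 (adjusted p = 0.024), a call lost without mifepristone plus NaCl A (-0.32) or B (-0.30). Gm28875, at chr12:104925501-104926689, fell by 0.72 and 0.80 with NaCl.

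**Figure D3:**
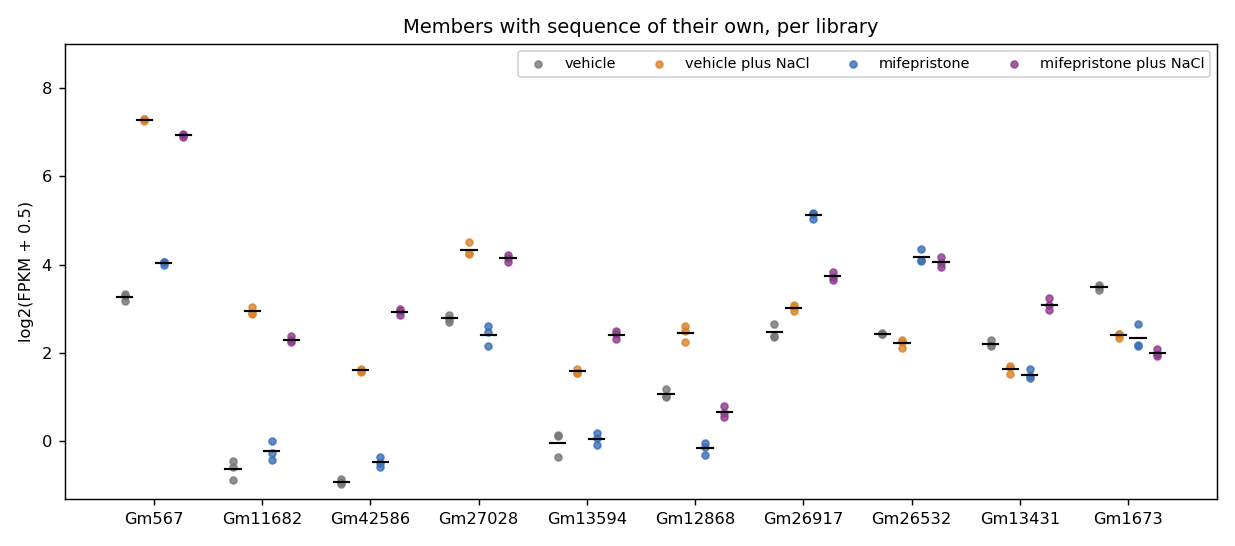
Level in each library, log2(FPKM + 0.5) on the vertical axis, of 10 members with their own sequence; points are the 3 libraries of each group and bars their means. Gm567, Gm11682 and Gm42586 are high in both NaCl groups, Gm26917 in mifepristone without NaCl and Gm13431 in mifepristone plus NaCl.

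Readthrough would add reads to a gene that lies past the end of another on the same strand. Of the 1491 genes, 629 had a tested neighbour within 10 kb or overlapping. By position 162 overlapped it on the same strand, 213 overlapped on the opposite strand, 101 began within 10 kb past its 3' end on the same strand, 21 were divergent, with starts within 2 kb on opposite strands, and 132 were near in another way. Among the 101 downstream members falls outnumbered rises in both NaCl comparisons. In vehicle cells 19 rose (18.8%) and 28 fell (27.7%), against 24.6% and 33.1% of all 1761 tested genes in that position, and in mifepristone cells 14 rose (13.9%) and 35 fell (34.7%), against 25.6% and 34.2%.

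The likeness of downstream members to the gene before them was weak, as it was for downstream genes in general. Across the 101 pairs the NaCl log2 fold changes of member and upstream gene correlated with r = 0.04 in vehicle and 0.22 in mifepristone cells, a description over pairs measured in the same libraries. Over all 1761 tested downstream genes r was 0.23 and 0.32. The sign was the same in 59 and 66 of the 101 pairs, and in 984 and 1021 of the 1761. In the fit of gene minus neighbour 21 downstream members were above and 27 below the gene before them in vehicle cells (20.8% and 26.7%), against 24.4% and 25.5% of all 8981 tested pairs. In mifepristone cells these were 17 and 23 (16.8% and 22.8%), against 25.4% and 26.2%. Of the 101, 14 had their own sequence. The others shared all or part of their sequence with genes elsewhere and can take up their reads. Values over all 101 therefore cannot show whether readthrough added reads. For the 14 alone r was 0.17 with NaCl in vehicle cells, with the same sign in 8 pairs. With NaCl in mifepristone cells their r was 0.33, with the same sign in 10 pairs. With NaCl 1 of the 14 rose and 4 fell in vehicle cells, and 2 rose and 8 fell in mifepristone cells. The libraries were made from poly(A)-selected RNA, and how much readthrough RNA they hold was not tested.

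Single downstream members behaved in different ways. Gm15753, an unprocessed pseudogene 8159 bases past Nyap1, an adaptor of phosphoinositide signalling, was at 0.652, 0.337 and 0.503 FPKM in vehicle and 1.37, 1.17 and 1.32 with NaCl, then 0.994, 0.697 and 1.14 in mifepristone and 6.37, 6.74 and 6.47 with both. The mifepristone plus NaCl libraries were above all others, as the choice of members required, since the mean over its other groups was 0.909 FPKM. Its rises of 0.85 and 2.30 stood beside 0.42 and 1.98 for Nyap1, and the difference from Nyap1 in mifepristone cells was 0.32 (adjusted p = 0.0971). Gm21960, 1076 bases past the telomerase RNA gene Terc, rose by 0.71 and 1.0, beside 0.40 and 0.63 for Terc (difference 0.31 and 0.37, adjusted p = 0.317 and 0.23). Gm43965, 835 bases past Foxm1, a cell cycle transcription factor, rose by 0.85 and 0.49, while Foxm1 was at 0.10 and 0.05 (adjusted p = 0.251 and 0.581).

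Other downstream members fell or did not move with the gene before them. Gm28875, 3244 bases past Syne3, fell by 0.72 in vehicle cells while Syne3, which links the nucleus to the cytoskeleton, rose by 0.38, a difference of -1.11 (adjusted p = 0.0015). Gm10180, a Rpl41 copy 6651 bases past Herpud2, fell by 0.82 as Rpl41 did (also -0.82), and differed from Herpud2 by -0.66 (adjusted p = 0.00681). Gm561 and Gm13421 were singled out after their values were seen. Gm561, 3305 bases past Sec23b, a coat protein gene of secretory vesicles that rose by 0.96 and 0.95 with NaCl, was itself at -0.23 and 0.06 (difference -1.19 and -0.89, adjusted p = 0.000204 and 0.00117). Gm13421, 3891 bases past the histone methylation cofactor gene Wdr5, was at 0.23 and 0.66 beside -0.13 and -0.37.

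Members with their own sequence that overlap a gene were then compared with that gene. For the 58 that overlap a gene on the same strand, in part or in full, the correlation with that gene across pairs was r = 0.69 in both NaCl comparisons. Of these, 5 were above and 5 below the overlapped gene in vehicle cells and 4 and 4 in mifepristone cells. Over all 1043 tested genes in that position r was 0.45 in both, with 15.1% above and 14.6% below in vehicle and 13.7% and 14% in mifepristone cells. For the 54 on the opposite strand r was 0.57 and 0.74, with 16 above and 6 below in vehicle and 11 and 3 in mifepristone cells. Over all 2679 tested genes in that position r was 0.29 and 0.32, with 23.9% above and 24.6% below in vehicle and 25% and 25.5% in mifepristone cells. Exon bases of a gene at the same place were shared by 47 of the 167 members with their own sequence, and their part in this likeness was not tested. Gm23458, a small nuclear RNA model inside Bcl7a, a chromatin remodelling subunit, was at -1.45 with NaCl in mifepristone cells beside -1.31 for Bcl7a. Gm16793, opposite to Mfhas1, had rises of 0.82 and 1.66 against 0.32 and 0.36. The difference in vehicle cells was 0.50 (adjusted p = 0.00063, limma). In mifepristone cells it was 1.30, but a rise of Gm16793 there was required for it to be among the members. Its mean over the lower groups was 1.10 FPKM. Over all 629 members with a neighbour 99 were above it and 168 below with NaCl in vehicle cells (15.7% and 26.7%), and 101 and 139 in mifepristone cells (16.1% and 22.1%). Over all 8981 tested pairs these shares were 24.4% and 25.5% in vehicle and 25.4% and 26.2% in mifepristone cells. Of the 629, 343 were near-identical copies with a tested matching gene, whose fold changes such copies followed. The counts over all 629 are therefore not of responses at the locus alone.

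**Figure D4:**
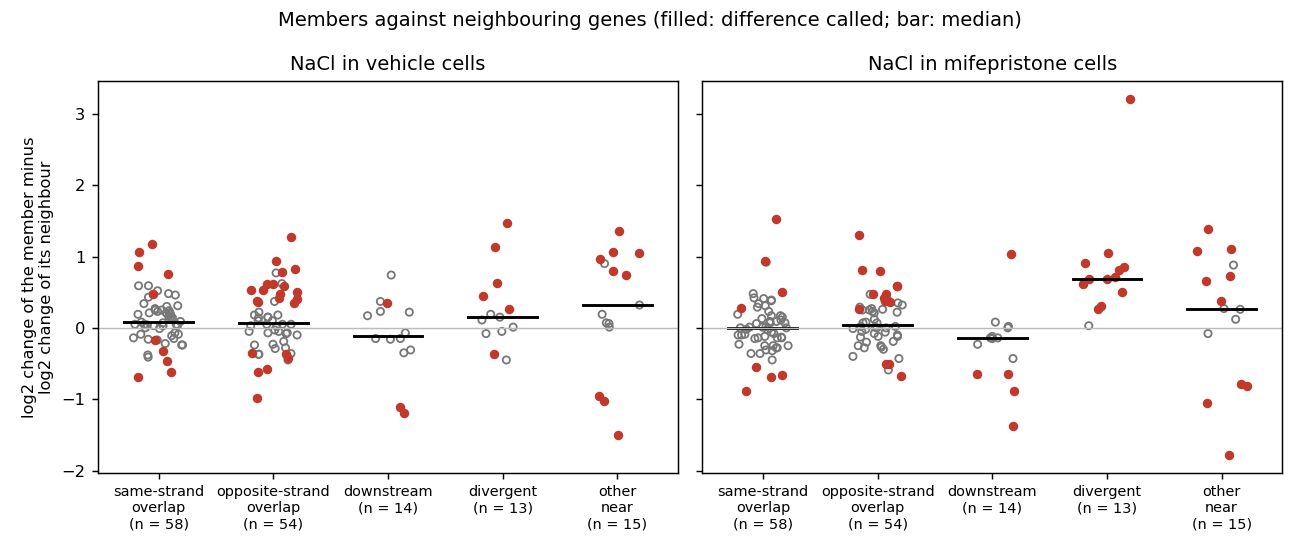
NaCl log2 fold change of each member with its own sequence minus that of its neighbour (vertical axis), by position (58 same-strand overlap, 54 opposite-strand overlap, 14 downstream, 13 divergent, 15 other near), in vehicle and in mifepristone cells; filled points passed the test and bars are medians. In mifepristone cells 12 of the 13 divergent members lie above 0 and passed, while the downstream medians were -0.11 and -0.15.

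Divergent members with their own sequence lay above the gene they start beside when NaCl was added to mifepristone cells. There were 13, a set singled out after the values were seen. With NaCl in mifepristone cells 8 rose and 1 fell, with a median of 0.56 against -0.16 for their neighbours. Rises were not particular to this position. Of the 13 members with their own sequence and no tested neighbour, 8 rose and 2 fell there (median 0.47). Of the 15 near a gene in another way, 7 rose and 3 fell (median 0.40). The member was above its neighbour in 12 of 13 pairs (92.3%) and below in 0, against 27.5% above and 27.8% below over all 1076 divergent tested genes. A divergent pair of tested genes can enter the count over all 1076 from both sides, which balances above and below there. Over all 21 divergent members, with or without their own sequence, 13 were above and 2 below (61.9% and 9.52%). In vehicle cells 5 of the 13 were above and 1 below (38.5% and 7.69%), and over all 21 these were 5 and 6 (23.8% and 28.6%). The interaction of the difference passed the test in 8 of 13, all toward a larger difference in mifepristone cells, against 13.9% above and 13.9% below over all 1076 divergent tested genes. Of the 13, 3 (Gm26595, Gm19569 and Gm7160) had a mean under 2 FPKM over the 3 lower groups, and of the other 10 the number above their neighbour was 9. The neighbour of Gm26595 is Gm10231, itself a near-identical copy of Atp5g2. Leaving out any single library gave 11 or 12 of 13.

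Gm5617 starts 143 bases from Rbm7 by GENCODE, on the other strand, and Rbm7 is itself a subunit of the complex that brings nuclear RNA to the exosome. Its levels were 3.76, 4.22 and 3.58 FPKM in vehicle, 4.19, 3.73 and 3.48 with NaCl, 3.09, 4.13 and 4.88 with mifepristone and 8.41, 7.44 and 7.54 with both. The mifepristone plus NaCl libraries were above the other 9, which overlapped. The NaCl log2 fold change was -0.02 in vehicle and 0.89 in mifepristone cells, while Rbm7 was at -0.02 and 0.04 (difference in mifepristone cells 0.85 ± 0.116, SE, adjusted p = 0.000131).

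Gm26910, at chr18:67773712-67774857, starts 19 bases from the nuclear pore gene Seh1l. It stood at 2.21, 2.21 and 2.18 FPKM in vehicle, 3.21, 3.38 and 2.73 with NaCl, 2.33, 2.18 and 2.66 with mifepristone and 5.69, 5.52 and 5.35 with both. Its rises of 0.41 and 1.06 stood beside -0.03 and 0.01 for Seh1l (adjusted p of the difference 0.00184 and 3.48e-06). Gm7160 rose by 0.68 and 0.71 with NaCl, whereas Zcchc2 rose by 0.57 in vehicle cells and was at -0.11 in mifepristone cells (adjusted p = 0.172).

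Further pairs gave the same direction in mifepristone cells. Gm13375 fell by 0.44 with NaCl in vehicle cells and rose by 0.56 in mifepristone cells, beside 0.01 and -0.13 for Arhgap21. Gm9958 rose by 0.48 and 0.76, beside 0.56 and -0.16 for Ankrd17. Gm38345, opposite to the transcription factor gene Hhex, rose by 0.37 and 0.76, beside -0.25 and 0.07. Gm11767 and Gm27042 did not pass the test in mifepristone cells (0.13 and -0.14, adjusted p = 0.377 and 0.0591), and there it was the neighbours Baiap2 and Aldh18a1 that fell, by 0.49 and 0.45. Gm17586 was the exception, falling by 0.27 beside a fall of 0.30 in Mafg (difference 0.03, adjusted p = 0.789), and its fall was not called without mifepristone plus NaCl C (-0.22).

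**Figure D5:**
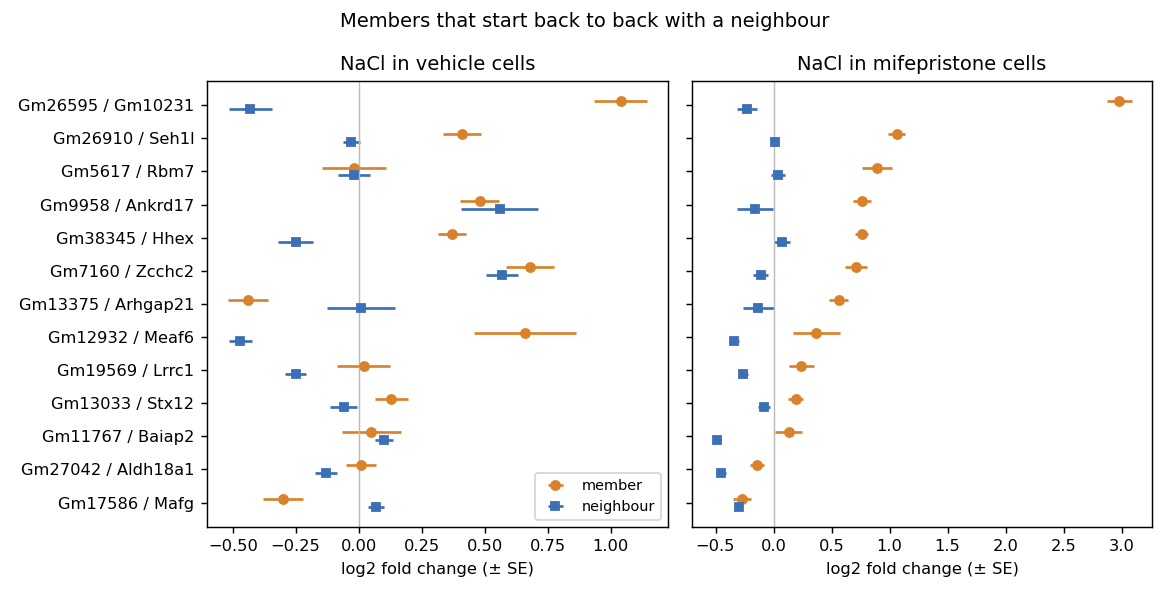
NaCl log2 fold change with its standard error for the 13 divergent members with their own sequence and for the neighbouring gene, in vehicle and in mifepristone cells. In mifepristone cells the member lies above its neighbour in each pair, and the difference passed the test in each except Gm17586 and Mafg.

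Mifepristone without NaCl raised 289 members (19.4%) and lowered 462 (31.0%), against 28.3% and 31.5% of all tested genes. With NaCl present it raised 271 (18.2%) and lowered 326 (21.9%), against 26.8% and 31.9%. The largest rise was in Gm5424, a copy of Ass1, the urea cycle enzyme that makes argininosuccinate. Gm5424 is a member only through the mifepristone groups, so a rise with mifepristone was required. Its means were 0.106 FPKM in vehicle and 0.082 in vehicle plus NaCl. In the other groups they were 11.3 with mifepristone and 6.92 with both. By library Gm5424 was at 0.101, 0.126 and 0.0902 FPKM in vehicle and 10.45, 11.75 and 11.69 with mifepristone, a log2 fold change of 4.28 beside 4.56 for Ass1. The difference passed the test, but with 0.1 in place of 0.5 added to FPKM it was -0.13 (adjusted p = 0.748), and the ratio of the group means was 107 for Gm5424 and 101 for Ass1. Gm16439, a copy of Bnip3, fell by 1.55 and Bnip3 by 1.49, and Gm4070, a copy of the interferon-induced GTPase gene Gvin1, fell by 1.57 as Gvin1 did.

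Gm16310, a transcript inside Mrps6, a mitochondrial ribosomal protein gene, responded to both treatments. It was at 1.61, 1.51 and 1.31 FPKM in vehicle, 12.7, 12.2 and 11.8 with NaCl, 12.8, 12.2 and 10.6 with mifepristone and 55.4, 50.8 and 55.6 with both. Either treatment alone gave overlapping levels, and both together gave the highest. It rose by 2.69 and 2.14 with NaCl and by 2.65 with mifepristone, against 1.51, 1.36 and 1.41 for Mrps6. Slc5a3, the sodium-dependent myo-inositol transporter that overlaps Mrps6 on the same strand, rose by 2.02, 1.13 and 2.02.

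Members with their own sequence also responded to mifepristone. Gm26917, at chr17:39843013-39846341 and 12 bases from the ribosomal RNA model Rn18s-rs5, read 4.69, 4.73 and 5.84 FPKM in vehicle, 7.24, 7.78 and 7.99 with NaCl, 35.0, 35.6 and 32.3 with mifepristone and 13.8, 12.7 and 12.1 with both. The 4 groups did not overlap, and it rose by 2.64 with mifepristone and fell by 1.38 with NaCl in mifepristone cells. Rn18s-rs5 varied widely within groups (59.5 ± 17.1 FPKM with mifepristone, SD, n = 3) and did not pass the test in these comparisons. Gm26532, which contains Mir24-2, rose by 1.74, from 4.94 ± 0.0633 to 17.8 ± 1.82 FPKM. Gm26854, antisense to Oxr1, rose by 1.54, as Oxr1 did by 1.37.

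The response to NaCl differed between mifepristone and vehicle cells for 241 members, 116 toward higher and 125 toward lower (7.78% and 8.38%), against 13.6% and 17.5% of all tested genes and 31.1% in either direction. Without mifepristone C these shares were 25.0% and 12.7%. Gm13431, a long intergenic noncoding RNA at chr2:36216777-36222934, moved in opposite directions. It went from 3.95, 4.07 and 4.42 to 2.37, 2.78 and 2.73 FPKM with NaCl in vehicle cells and from 2.19, 2.29 and 2.60 to 8.01, 7.34 and 8.98 in mifepristone cells (log2 -0.57 and 1.59, interaction 2.16 ± 0.116, SE). Neither pair of groups overlapped. Its neighbour Ptgs1, the constitutive cyclooxygenase, lies 7492 bases away and rose in both, by 0.92 and 2.65, with an interaction of 1.73.

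Gm26595, a 484-base pseudogene model with its own sequence at chr17:5817472-5817955, had 0 reads in the 3 vehicle libraries, 35 with NaCl, 50 with mifepristone and 605 with both. Against the floor of 3 reads over the vehicle group it was at least 11.7-fold higher with NaCl and at least 16.6-fold higher with mifepristone. In mifepristone cells it went from 0.591, 0.699 and 0.875 to 9.70, 9.19 and 8.38 FPKM with NaCl, a ratio of the means of 12.6, and this rise was required for it to be among the members. The order of its NaCl responses in vehicle and mifepristone cells therefore cannot be read: the interaction was 1.94 as fitted and -0.94 with voom on the recovered reads. Gm10231, a copy of Atp5g2 whose start is 832 bases away on the other strand, fell by 0.43 and 0.23 with NaCl. Copies showed their matching gene's interaction here too: Gm6166 and Fabp5, a fatty acid binding protein, were at 1.37 and 1.35.

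Genes for RNA 3' ends and decay were looked at as the other side of readthrough and divergent RNA. Over all tested genes 25.2% rose and 31.5% fell with NaCl in vehicle cells and 24.5% rose and 34.2% fell in mifepristone cells. Of 28 genes for 3' end processing and termination, 7 rose and 8 fell with NaCl in vehicle cells and 3 rose and 17 fell in mifepristone cells. Ppp1r10, a subunit of a phosphatase complex that acts in termination, rose by 0.62 and 0.52, and Wdr82, of the same complex, fell by 0.19 and 0.33. Of 14 Integrator genes 6 rose and 1 fell in vehicle and 3 rose and 3 fell in mifepristone cells. Of 18 tested genes for nuclear RNA decay 0 rose and 6 fell in vehicle cells, and 0 rose and 8 fell in mifepristone cells, with the exosome subunit Exosc8 down by 0.26 and 0.35 and the exosome cofactor Mphosph6 by 0.45 and 0.19. Of 10 nonsense-mediated decay genes 6 rose and 0 fell in vehicle cells, Upf2 by 0.38, against 1 and 2 in mifepristone cells. Their part in the members' values was not tested.

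Of the 1491 members, 160 (10.7%) carried a mark of a nearby peak in the authors' deposited table, against 3987 of the 14044 tested genes (28.4%). In the authors' deposited table the mark was present in 8.7% of near-identical copies and in 19.2% of members with their own sequence, Gm567 and Gm13431 among them.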

How the data were processed

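RNA-seq of poly(A)-selected RNA (miRNeasy and TruSeq kits, per the labels' protocols) was analysed from the authors' deposited FPKM table of 48034 genes. Trimmomatic 0.32, STAR 2.4.2a, SAMtools 1.0 and DESeq2 1.12.3 and the GRCm38/mm10 build are named in the submitters' processing notes. By which program and annotation reads were counted, and how strand and reads with several matches were treated, was not given in the sources used here. The authors' deposited comparison tables also hold a normalized signal (mean normalized count), log2 changes and adjusted p-values; of these tables the peak mark alone is printed. The table's columns for mutant cells were matched to the mifepristone samples by their NaCl part and letter and by knowledge of the study.

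Whole reads were recovered from the FPKM steps (100.0% of values within 0.05 of a whole number), giving 41940955 to 49270776 per library. limma 3.58.1 (R 4.3.3) was run on log2(FPKM + 0.5) with a mean for each group, trended and robust empirical Bayes and 8 residual degrees of freedom, over genes with at least 1 FPKM in at least 3 libraries. Benjamini-Hochberg adjustment covered all 14044 genes, with a call at 0.05. The same fit was run on gene minus neighbour (8981 genes) and on copy minus matching gene (1074 pairs, chosen after seeing the data). A neighbour is a tested gene that overlaps or lies within 10 kb, or for divergent pairs a start within 2 kb. Transcripts were compared with GENCODE M21 transcripts by BLAST+ 2.17.0, and 98.5% of gene IDs were found there. Tables and figures were made with Python 3.11.15, pandas 2.3.3 and matplotlib 3.10.9. The fits were tested on simulated data.

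Letters A to C were tested as pairs and the libraries share only a letter. Members named are, in each comparison, the 6 largest rises and 6 largest falls among called members whose groups do not overlap, over all members and, added after seeing the data, over members with their own sequence; the 6 of highest mean; up to 8 downstream members called with NaCl and changed at least 1.5-fold; the 3 on either side of the threshold; and the neighbours of these. Likeness was taken for the 3 members of widest range and, added after seeing the data, for 3 with their own sequence, RNA processing genes by smallest adjusted p, and divergent members after their values were seen. The members and lists were chosen with earlier results of these data known. Alternatives covered filters, pseudocounts, scaling, a count model (voom) on the recovered reads, a replicate block, each library left out, and narrower member sets and distances.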

Additional observations from a re-analysis of the deposited data

Results flagged for a closer look

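The NaCl response of 241 members differed between mifepristone and vehicle cells by limma's interaction term, and 12 named members are given here for that difference, as the log2 fold change with NaCl in mifepristone cells minus that in vehicle cells. Among members with their own sequence the values were 2.16 for Gm13431, 1.94 for Gm26595, -1.93 for Gm26917, -1.12 for Gm567, -1.05 for Gm11682, -1.21 for Gm23458 and -1.53 for Gm15347. With voom on the recovered reads the value for Gm26595 was -0.94, so its direction is not settled. Gm26595 and Gm15753 are members only through mifepristone plus NaCl and Gm11682 only through vehicle plus NaCl, which fixes the direction of part of the difference. Gm15347 lies opposite to the flippase gene Atp11a, which was at -1.23, and its call was lost under 9 alternatives, among them the replicate block and the removal of vehicle A, of vehicle plus NaCl B or C, and of A or B in either mifepristone group, with values from -1.53 to -1.32. Among genes that share sequence with others the values were 1.44 for Gm15753, 1.29 for Gm13056, 1.37 and 1.18 for the Fabp5 copies Gm6166 and Gm14328, and -1.05 for Gm37579, beside -0.99 for the gene it matches, Sh3d19.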

How the results depend on the processing

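Shares of the 1491 members called changed by over 1.5 times under few settings. Quantile normalization gave 11.7% toward higher for the interaction (7.78% as reported), and no filter on low values gave 5.16% toward lower (8.38%). Leaving out mifepristone C gave 25.0% and 12.7%, leaving out both mifepristone C and vehicle A 22.5% and 13.5%, and leaving out vehicle plus NaCl C 5.5% lower. Counting members without a near-identical copy gave 23.8% higher and 22.2% lower with NaCl in vehicle cells. Counting those with their own sequence gave 29.3% and 16.8% there, 25.7% higher with NaCl in mifepristone cells, 19.2% lower with mifepristone and 15.6% lower for the interaction.

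Leaving out 1 library at a time gave ranges of 16.8 to 19.8% higher and 24.5 to 38.6% lower for mifepristone, 15.2 to 21% and 16.8 to 27.2% for mifepristone with NaCl, 13.1 to 18.5% and 31.3 to 41.0% for NaCl in vehicle cells, 13.5 to 16.7% and 25.0 to 35.4% in mifepristone cells, and 5.3 to 25.0% and 5.5 to 12.7% for the interaction. For downstream members the ranges were 13.9 to 19.8% and 24.8 to 31.7% in vehicle, and 10.9 to 14.9% and 21.8 to 37.6% in mifepristone cells, where leaving out mifepristone plus NaCl A or B gave 21.8% and 22.8% lower against 34.7%. Members above and below their neighbour ranged over 13 to 17.6% and 22.1 to 32.4% in vehicle, and 13.7 to 19.7% and 18.6 to 22.3% in mifepristone cells, and divergent members above it over 84.6 to 92.3%.

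With the replicate block 14.7% rose and 35.8% fell with NaCl in vehicle cells, 14.5% and 29.6% in mifepristone cells, 18.6% and 29.2% with mifepristone, and 6.51% each way for the interaction. The pairing check found no deviation shared with the same sign by the libraries of a letter (correlations from -0.5 to 0.288). Some same-lettered libraries deviated in opposite directions, such as vehicle A and mifepristone A (-0.5) and mifepristone C and mifepristone plus NaCl C (-0.488). Of 5168 comparisons over 252 calls of named members 4928 were on the same side of the threshold, 237 lost the call and 3 changed sign. With voom on recovered reads the interaction of Gm26595 was -0.94 and that of Gm42586 -1.14, and under quantile normalization Gm28661 was at 0.0 with mifepristone plus NaCl against -0.27. The cause of these changes was not tested.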
